A study of Mus musculus with 4 samples.

Results

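The transcription factors of the B lineage other than EBF1 were followed in progenitor cells that cannot make EBF1. The 9 genes *Pax5*, *Bach2*, *Pou2af1*, *Lef1*, *Bcl6*, *Irf4*, *Bcl11a*, *Mef2c* and *Myb* were chosen by name, and every probe whose gene name on the array was one of them was taken. This gave 12 of the 39429 probes of the array. *Pax5*, *Bach2* and *Bcl11a* each had more than 1 probe. Of the 12 probes, 9 from 8 genes were well above background on every array and were tested, and the remaining 3 were dim and are given as values only.

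B cell development runs through a small network of nuclear factors. E2A and EBF1 switch on early B cell genes, PAX5 then fixes the choice of the lineage by activating B cell genes and silencing those of other lineages, and factors such as MYB, MEF2C, LEF1 and BCL11A act in the progenitors from which B cells arise. BACH2, BCL6, IRF4 and POU2AF1 shape the later path, up to the germinal centre and the decision between a B cell and an antibody-secreting plasma cell.

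Both groups were mouse fetal liver cells depleted of lineage-positive cells (Lin-) and homozygous for disruption of *Ebf1* (Ebf1-/-). One group was infected with the empty retrovirus (EMPTY), which carries GFP, and the other with the same vector carrying *Mir195* (miR-195), whose insert was amplified from human leukaemia cell DNA. There were 2 arrays per virus, replicates 1 and 2, and both groups received SCF, IL-7 and Flt3-ligand at 10 ng/mL each in culture on OP9, a mouse stroma cell line that supports lymphoid growth. Whether infected cells were sorted before RNA was taken, and whether the replicates came from separate embryos, is not given in the sources used here, so that p-values measure the spread between these arrays. With 2 arrays against 2, no exact two-sided permutation test can give a p below 0.333, and precision is limited throughout by how few arrays there are.

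All 4 arrays were on the same slide and from the same scan, with the EMPTY arrays in the leading positions, so position and virus cannot be told apart. Between 23658 and 24671 probes per array were well above background. The probe of *Ebf1* was bright throughout and its log2 difference, miR-195 minus EMPTY, was -0.0066 (standard error 0.13, limma adjusted p = 0.995). The position of this probe relative to the disrupted part of the gene was not analysed here, so its signal does not check the genotype. Of the 12 B lineage markers on the array, 11 were tested, 7 with a higher and 4 with a lower mean with miR-195, a median of 0.052 and 0 past the adjusted threshold. The 3 at an unadjusted p under 0.05 were all higher, *Cd79b* by 1.18 (standard error 0.28), *Rag1* by 0.52 (standard error 0.16) and *Rag2* by 0.32 (standard error 0.12), and *Dntt* was lowest at -0.54 (standard error 0.21). Both miR-195 arrays lay above both EMPTY arrays for these 3, and below them for the 4 with a lower mean (*Cd79a*, *Vpreb2*, *Dntt* and *Blnk*). *Cd79a* was tested only because both EMPTY arrays were well above background, so the filter favoured a lower value with miR-195. Among all tested probes, 23.4% stood apart as higher, 14.4% as lower and 8.34% had an unadjusted p under 0.05.

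The overexpressed miRNA recognises its targets mainly through its seed, bases 2 to 8 of the mature strand, which is shown here in capitals. The sequence is that of RefSeq (GRCm38.p6), where the mature mouse strand lies at chr11:70235062-70235082 on the plus strand. The same 7 bases are found in other endogenous mouse miRNAs, miR-15b-5p and miR-322-5p among them, and 3 are listed as examples.
mmu-miR-195a-5p: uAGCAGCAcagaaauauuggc
mmu-miR-16-5p: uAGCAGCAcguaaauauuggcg
mmu-miR-15a-5p: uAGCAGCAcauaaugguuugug
mmu-miR-497a-5p: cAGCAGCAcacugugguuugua

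Each array probe is a 60-base DNA strand that reports on 1 stretch of a transcript. The first 30 bases are given for the 4 probes on which the values below turn, both *Pax5* probes, the dimmer *Bach2* probe and the *Mef2c* probe. None of the 12 probes held GCTGCT, the complement of bases 2 to 7 of the miRNA, which was present in 2.09% of all probes of the array.
Pax5 A_55_P2126394: gtttgagagacagcactactctgacatctt
Pax5 A_51_P122855: ctactctgcaccgacgctgacagggatggt
Bach2 A_55_P1956370: cttctggcaagcactggttggacagacgaa
Mef2c A_55_P2155620: agaggaatagtatgtctcctggtgtaacac

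No member passed the test. With limma, 0 of the 9 tested probes had an adjusted p under 0.05, as did 0 of all 23731 tested probes (0%), and the lowest adjusted p was 0.530 among the members and 0.101 over all probes. At an unadjusted p under 0.05 there were 2 member probes, *Bach2* A_55_P1956370 and *Mef2c*, beside 8.34% of all tested probes. The t-test named in the methods, applied to the log2 ratios of arrays with the same number, gave 1134 probes at its threshold and 0 after Benjamini-Hochberg adjustment, with 0 members in either count. The mean was higher with miR-195 for 6 member probes and lower for 3, with a median log2 difference of 0.069 against 0.013 over all tested probes.

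The levels below are log2 signals from which the 75th percentile of their array was subtracted. They are compared between arrays within a probe, and no probe's level is set against that of another. Where markers of a cell type were summed, the log2 of their summed scaled signals is given, in which the brightest probes weigh most. On this scale both miR-195 arrays lay above both EMPTY arrays for 4 member probes (both *Bach2* probes, *Bcl11a* A_55_P1958275 and *Mef2c*), and all tested probes did so in 23.4% of cases. Both miR-195 arrays lay below both EMPTY arrays for 0 member probes and 14.4% of all tested probes. For 37.8% of all tested probes the groups did not overlap in one direction or the other, so that 4 of 9 in either direction is near the background. These shares, with 8.34% at an unadjusted p under 0.05 and 53.0% with a higher mean, also serve as background for the gene lists.

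**Figure D1:**
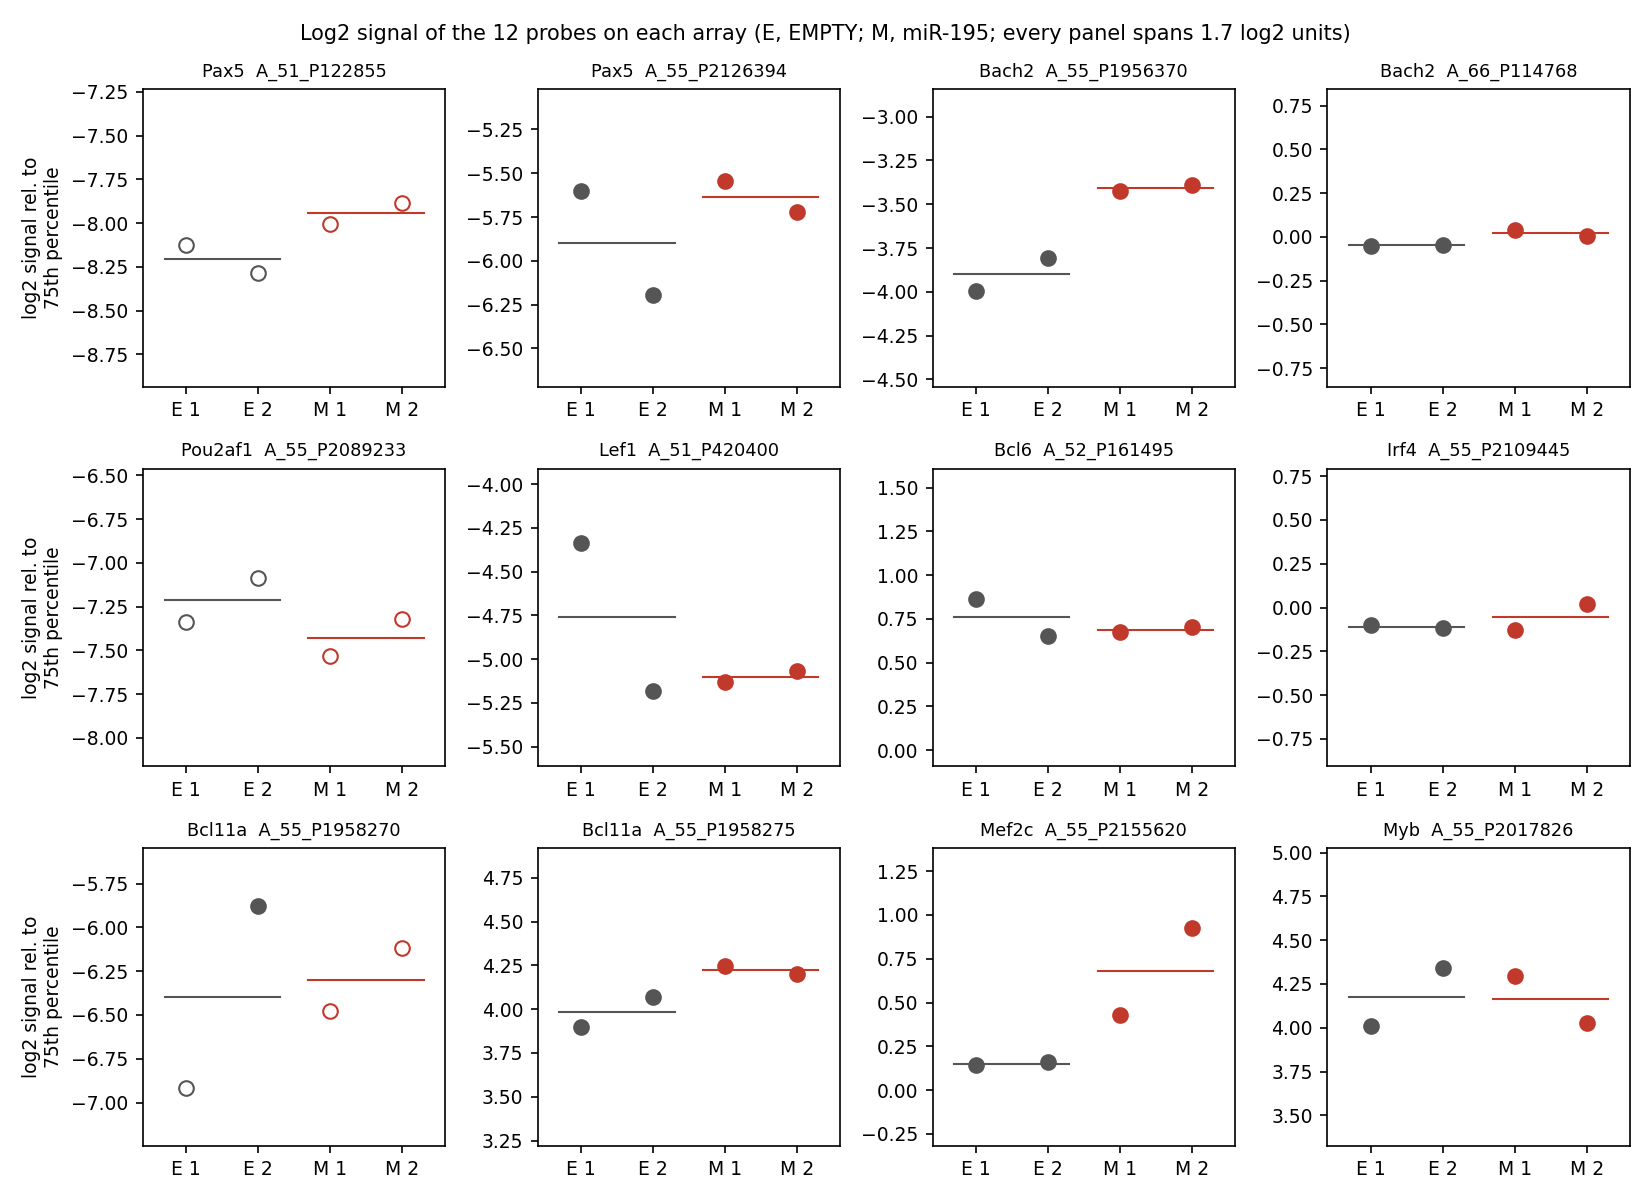
Log2 signal less its array's 75th percentile (y axis) for the 12 probes of the 9 genes on each array (x axis: E, EMPTY; M, miR-195; replicates 1 and 2), with a line at each group mean. Filled points are well above background and open points are not. Each panel has its own axis of the same span. The miR-195 points lie above the EMPTY points for both *Bach2* probes, *Bcl11a* A_55_P1958275 and *Mef2c*. The open points of *Pax5* A_51_P122855 are surrogate values put in by the scanner software, and their order was not measured.

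PAX5 is the factor that commits a progenitor to the B lineage. Its brighter probe, A_55_P2126394, read -5.60 and -6.19 with EMPTY and -5.54 and -5.72 with miR-195. EMPTY replicate 2 was the lowest array, while EMPTY replicate 1 lay between the miR-195 arrays, so the groups overlapped. The log2 difference was 0.26 (standard error 0.23, 95% interval -0.34 to 0.87, adjusted p = 0.870 from limma). The interval ended at 0.87 on the log2 scale for this probe and this scaling. With 2 arrays per virus, a dim spot and replicates of unknown independence, it does not exclude a larger rise. The 2 EMPTY arrays differed by 0.59, more than the groups did. Leaving out EMPTY replicate 2 turned the difference to -0.034, leaving out EMPTY replicate 1 gave 0.56, and in the table normalized by the authors it was 0.015. The normexp background correction gave 0.31 (unadjusted p = 0.0281 and adjusted p = 0.282 from limma).

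The *Pax5* signal was dim on every array. The background-subtracted intensity of A_55_P2126394 was 14.1 to 23.3, its spot exceeded the local background by a factor of 1.84 to 2.26, and the scanner software's own error was 17.1% to 21.4% of the signal. The other *Pax5* probe, A_51_P122855, was well above background on 0 of 4 arrays and carried the surrogate value that the software puts in place of a signal it cannot separate from background. Its listed values, -8.13 and -8.29 with EMPTY and -8.00 and -7.88 with miR-195, therefore have no measured order. The 2 probes have 55% and 50% GC, both above the array's median of 41.7%.

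Over the 4 arrays, the probes most like *Pax5* A_55_P2126394 were those of *Entr1*, an unnamed transcript (A_55_P2021876) and *Napb*, at Euclidean distances of 0.051, 0.090 and 0.090 between values centred on each probe's own mean. In all, 30 of the 22567 probes compared lay within a distance of 0.2. A likeness over 4 arrays is a description and carries no test.

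BACH2 is a repressor that partners small MAF proteins, holds down the plasma cell regulator *Prdm1* and favours lymphoid over myeloid genes in progenitors. Its probe A_55_P1956370 read -3.99 and -3.81 with EMPTY and -3.42 and -3.39 with miR-195. Both miR-195 arrays were higher, and the gap between the groups was wider than the gap within either. Before scaling, the intensity was 70.8 and 73.6 with EMPTY and 84.1 and 87.9 with miR-195. Scaling widened this gap, because the 75th percentile was lower on the miR-195 arrays. The log2 difference was 0.49, a 1.41-fold higher level (standard error 0.13, 95% interval 0.16 to 0.83, unadjusted p = 0.0136 and adjusted p = 0.530 from limma). It lay above 93.5% of the differences of all tested probes. The direction held in each of the 9 alternatives that can move the value, which gave 0.40 to 0.59.

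The second *Bach2* probe, A_66_P114768, answers to another transcript accession and holds AATAAA, the hexamer of polyadenylation signals, which 12.6% of all probes carry. It read -0.050 and -0.044 with EMPTY and 0.040 and 0.0035 with miR-195. Both miR-195 arrays were higher here too, but by little, with a log2 difference of 0.069 (standard error 0.11, 95% interval -0.23 to 0.37, adjusted p = 0.934 from limma). Scaling by the median turned it to -0.029. Before scaling, the intensity was 1089 and 999 with EMPTY and 928 and 924 with miR-195, lower on both miR-195 arrays. The differences of the 2 probes were 0.42 apart (exact two-sided permutation p = 0.333, the smallest these arrays can give). Which transcript each one reads was not tested.

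BCL6 is a repressor best known from germinal centre B cells, and it also protects pre-B cells during light chain recombination. Its probe read 0.86 and 0.65 with EMPTY and 0.68 and 0.70 with miR-195. EMPTY replicate 1 was the highest array and the other three lay together. A log2 difference of -0.070 (standard error 0.13, 95% interval -0.42 to 0.28, adjusted p = 0.942 from limma) resulted, which became 0.036 without EMPTY replicate 1.

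BCL11A is a zinc finger repressor needed for early B cell development and known for silencing embryonic globin genes in the red cell lineage. Its probe A_55_P1958275, with an intensity of 16784 to 17275, read 3.90 and 4.07 with EMPTY and 4.25 and 4.20 with miR-195. Both miR-195 arrays were higher. The groups differed by 0.24 on the log2 scale (standard error 0.13, 95% interval -0.092 to 0.57, adjusted p = 0.738 from limma), and it stayed above 0 in each of the 9 alternatives that can move it, from 0.14 to 0.33. The raw intensities of the 4 arrays differed far less than the scaled values did, because the 75th percentile to which they were scaled was 1127 and 1030 with EMPTY and 902 and 922 with miR-195. The other *Bcl11a* probe, A_55_P1958270, which names a different transcript, was well above background on 1 array, EMPTY replicate 2, and was not tested.

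MYB maintains blood progenitors and supports the earliest B cell steps. Its probe was bright, with an intensity of 15048 to 20856, and it also holds AATAAA. The levels were 4.01 and 4.34 with EMPTY and 4.29 and 4.03 with miR-195. The groups overlapped fully, with a high and a low array in each. Their log2 difference was -0.015 (standard error 0.18, 95% interval -0.48 to 0.45, adjusted p = 0.993 from limma). Its sign turned in 4 of the 9 alternatives that can move it, being 0.15 without EMPTY replicate 2, 0.12 without miR-195 replicate 2, 0.020 after quantile normalization and 0.0067 with the percentile taken over detected probes.

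MEF2C is a MADS-box factor that favours lymphoid over myeloid fate in progenitors, and it is also made in muscle, brain and endothelial cells. Its probe had an intensity of 1243 and 1152 with EMPTY and 1217 and 1750 with miR-195. Before scaling, miR-195 replicate 1 thus lay between the EMPTY arrays. After scaling, the probe read 0.14 and 0.16 with EMPTY and 0.43 and 0.92 with miR-195. Both miR-195 arrays were higher, and miR-195 replicate 2 stood well above replicate 1. This made a log2 difference of 0.53, a 1.44-fold higher level (standard error 0.20, 95% interval 0.013 to 1.04, unadjusted p = 0.0463 and adjusted p = 0.591 from limma), above 94.1% of all tested probes. It fell to 0.28 without miR-195 replicate 2 and reached 0.77 without replicate 1, where the adjusted p of 0.0648 was the lowest of any member in any alternative.

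The array with the highest *Mef2c* was also the one with the most stroma signal. Of 10 markers of OP9 stroma, 7 were tested. The log2 of their summed signals was 3.32 and 3.44 with EMPTY, 3.27 on miR-195 replicate 1 and 4.13 on miR-195 replicate 2. *Cxcl12* had the highest difference at 0.40 (standard error 0.35) and *Bgn* the lowest at -0.071 (standard error 0.11). *Dcn*, *Lum* and *Postn* were not among the tested genes, and 0 of the 7 had an adjusted p under 0.05. The part of stroma RNA in the *Mef2c* signal was not tested. Here and below, a change in the number of cells of a type and a change in RNA per cell cannot be told apart in RNA from many cells.

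LEF1 is an HMG-box factor of the Wnt pathway that is present in pro-B cells and in developing T cells. Its probe was dim, with an intensity of 25.7 to 55.7, and read -4.34 and -5.18 with EMPTY and -5.13 and -5.07 with miR-195. EMPTY replicate 1 stood alone above the other three arrays. The log2 difference of -0.34 (standard error 0.30, 95% interval -1.12 to 0.44, adjusted p = 0.870 from limma) rested on that array, since it became 0.082 when EMPTY replicate 1 was left out and -0.76 when EMPTY replicate 2 was. The normexp background correction gave 0.095. All 10 markers in the T cell list were tested and had a lower mean with miR-195, 0 with an adjusted p under 0.05 and 5 with an unadjusted one (*Bcl11b*, *Cd3g*, *Cd3d*, *Thy1* and *Ptcra*), while *Lck* was nearest to 0 at -0.028 (standard error 0.14). Over all tested probes, 53.0% had a higher mean and 8.34% an unadjusted p under 0.05. *Bcl11b* was tested only because both EMPTY arrays were well above background, so the filter favoured a lower value with miR-195. The log2 of the summed signals of the 10 markers was 5.74 and 5.88 with EMPTY and 5.70 and 5.60 with miR-195. Their part in the *Lef1* value was not tested.

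IRF4 drives light chain recombination in pre-B cells and, at high levels, the plasma cell state. Its probe read -0.10 and -0.12 with EMPTY and -0.13 and 0.017 with miR-195. One miR-195 array was the lowest of the 4 and the other the highest, so the groups overlapped. The difference was 0.054 on the log2 scale (standard error 0.12, 95% interval -0.27 to 0.37, adjusted p = 0.954 from limma), and it turned to -0.020 without miR-195 replicate 2 and to -0.044 with scaling by the median.

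POU2AF1 is the B cell coactivator of the octamer-binding factors OCT1 and OCT2. Its probe was well above background on 0 of 4 arrays, with listed levels of -7.34 and -7.09 with EMPTY and -7.53 and -7.32 with miR-195. The groups overlapped, and the software's error was 38.3% to 60.8% of the signal. Its spot exceeded the local background by a factor of 1.57 to 1.85. These values are not well above background, and no fold is given.

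**Figure D2:**
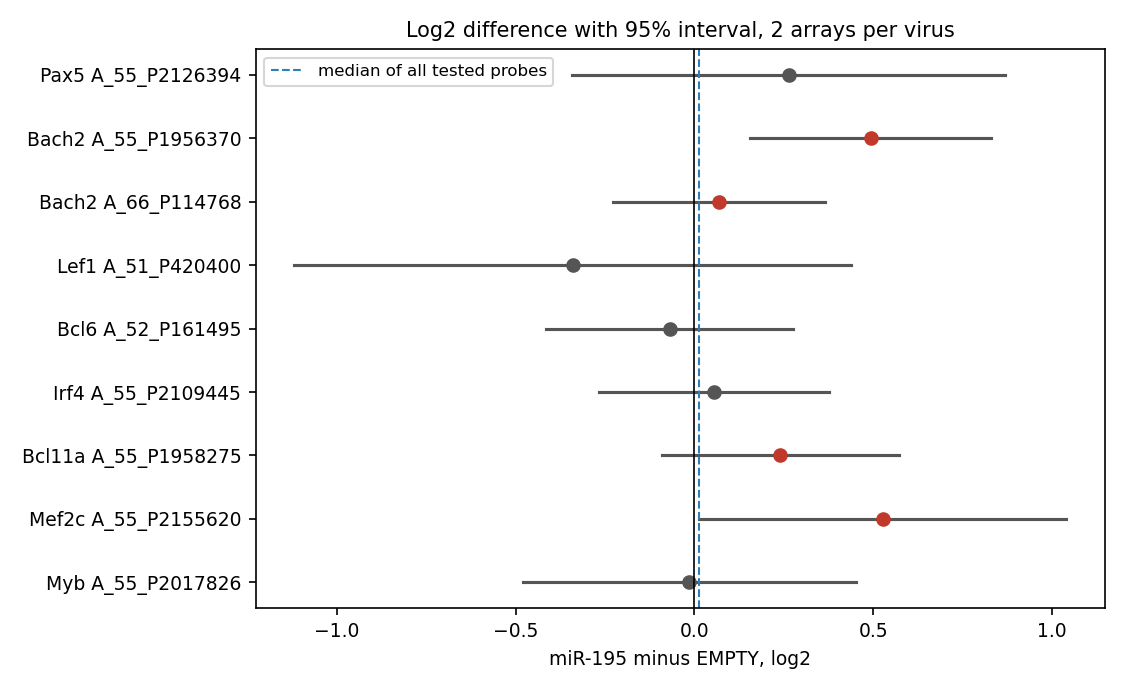
Log2 difference, miR-195 minus EMPTY (x axis), of the 9 tested probes, with the 95% interval from limma. Red points mark probes whose groups did not overlap, and the dashed line is the median of all tested probes, 0.013. The intervals of *Bach2* A_55_P1956370 (0.16 to 0.83) and *Mef2c* (0.013 to 1.04) lie above 0 before adjustment, and the other 7 cross it.

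**Figure D3:**
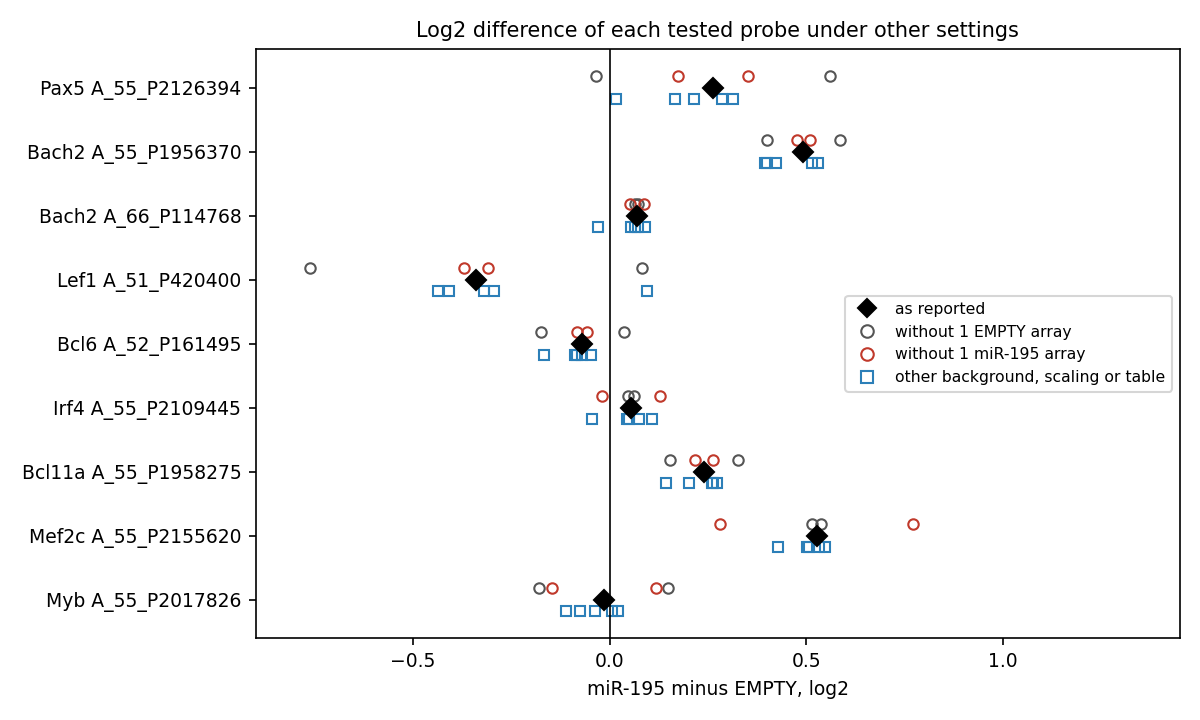
The same differences (x axis, log2) as reported (diamonds), with 1 array left out (circles, above each diamond) and with another background correction, scaling or the authors' table (squares, below). *Bach2* A_55_P1956370, *Bcl11a* and *Mef2c* keep all their points to the right of 0, whereas *Pax5*, *Lef1*, *Bcl6*, *Irf4*, *Myb* and *Bach2* A_66_P114768 have points on both sides.

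Of the members, *Bach2*, *Irf4* and *Myb* are in the target predictions for the miRNA that accompany the study. Their log2 differences were 0.49 and 0.069 for the *Bach2* probes, 0.054 for *Irf4* and -0.015 for *Myb*. None of these probes had a lower mean with miR-195 beyond its standard error. An array measures RNA, so an effect on translation would not be seen here.

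The relatives and partners of the members comprised 23 genes, such as the MAF partners of BACH2, the OCT partners of POU2AF1 and other members of the MEF2, TCF, IRF and MYB families. Of 21 tested, 12 had a higher and 9 a lower mean with miR-195, 0 passed the adjusted threshold with limma, 1 had an unadjusted p under 0.05 (*Bcl11b*), and the median was 0.015. *Irf2*, an interferon-regulated factor, had the highest difference at 0.22 (standard error 0.12). That of *Bcl11b*, the T cell relative of *Bcl11a*, was the lowest. It exceeded background clearly on both EMPTY arrays and on 0 miR-195 arrays. *Bcl11b* was thus tested only through the group where it was high, and the filter favoured a lower value with miR-195. Its mean EMPTY signal was 1.98-fold the lowest signal well above background on the miR-195 arrays. That ratio carries no sampling error, the EMPTY arrays read -4.83 and -5.56, and the adjusted p was 0.530 from limma. The groups did not overlap for 4 relatives with a higher mean (*Irf2*, *Mafg*, *Crebbp* and *Mef2d*) and 3 with a lower one (*Bcl11b*, *Ep300* and *Hdac7*). This is near the background, since 23.4% of all tested probes stood apart as higher and 14.4% as lower.

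Known targets of the factors were described beside them. Of 13 genes that PAX5 activates, 11 were tested, and 3 (*Cr2*, *Ikzf3* and *Cd72*) had a higher and 8 a lower mean with miR-195, with a median of -0.098 and 0 past the adjusted threshold (1, *Fcrla*, at an unadjusted p under 0.05). *Fcrla*, an intracellular Fc receptor-like protein of B cells, was lowest at -0.59 (standard error 0.13, adjusted p = 0.530 from limma), and *Cr2*, the complement receptor, was highest at 0.27 (standard error 0.23). *Cd79a* was well above background on 0 miR-195 arrays and entered the test only through its EMPTY values. The filter thus favoured a lower value with miR-195. Its mean EMPTY signal was 1.01-fold the lowest signal well above background on the miR-195 arrays. That ratio has no sampling error attached, so it sets no smallest fall for *Cd79a*. For 0 genes of this list did both miR-195 arrays lie above both EMPTY arrays, and for 4 (*Fcrla*, *Cd79a*, *Bst1* and *Blnk*) they lay below. *Cd79a* is in this count, and in that of lower means, only through the EMPTY arrays. Over all tested probes the shares were 23.4% above and 14.4% below, and 53.0% had a higher mean.

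Of the genes that PAX5 represses, 8 were tested, 4 with a higher mean (*Notch1*, *Flt3*, *Cd28* and *Ccl3*) and 4 with a lower one (*Jchain*, *Ly6a*, *Prdm1* and *Xbp1*), and the median was -0.016. *Notch1*, the receptor that directs progenitors to the T lineage, was highest at 0.34 (standard error 0.13, adjusted p = 0.609 from limma), and *Jchain*, the joining chain of polymeric antibodies, was lowest at -0.57 (standard error 0.14, adjusted p = 0.530). Neither passed the test, and the list held 0 adjusted calls and 1 unadjusted one, *Jchain*. The 2 PAX5 lists share no gene.

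All 8 genes known to be activated by MYB were tested and had a higher mean with miR-195, with a median of 0.15, although the *Myb* probe itself differed by -0.015. In 4 of them (*Rag2*, *Kit*, *Ccnb1* and *Bcl2*) the groups stood apart, 0 passed the adjusted threshold and 1, *Rag2*, had an unadjusted p under 0.05. Among all tested probes, 23.4% stood apart in this direction, 53.0% had a higher mean and 8.34% an unadjusted p under 0.05. The list as a whole was not tested. *Rag2*, part of the recombinase that cuts antibody gene segments, was highest at 0.32 (standard error 0.12, adjusted p = 0.591 from limma). *Il7r*, the receptor for IL-7, was lowest at 0.052 (standard error 0.15). The list holds progenitor genes such as *Kit* and *Cd34*. Of 7 tested progenitor markers, both of these among them, 6 had a higher mean with miR-195. The highest was *Meis1* at 0.41 (standard error 0.23), and *Cd93* was at -0.068 (standard error 0.20). The log2 of the summed signals of the 7 was 7.08 and 7.29 with EMPTY and 7.37 and 7.19 with miR-195. Their part in the values of the list was not tested.

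For BCL6, 8 repressed genes were tested, 4 with a higher mean (*Cd69*, *Cd44*, *Cdkn1a* and *Ccl3*), 4 with a lower one (*Ccnd2*, *Trp53*, *Cxcr4* and *Prdm1*) and a median of -0.016. The early activation marker *Cd69* was highest at 0.29 (standard error 0.26) and the cyclin gene *Ccnd2* lowest at -0.27 (standard error 0.17). *Prdm1*, which BACH2 and BCL6 both repress and which drives plasma cells, differed by -0.063 (standard error 0.22, adjusted p = 0.970 from limma). The list had 0 calls, adjusted or unadjusted. Of the embryonic globins that BCL11A silences, 1 of 2 was tested, *Hbb-bh1*, with a difference of -0.039 (standard error 0.13).

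Of 5 genes activated by LEF1 and its relative TCF1, 4 were tested, with a higher mean for *Myc* and *Ccnd1* and a lower one for *Tcf7* and *Nkd1*. *Tcf7*, which codes for TCF1, was lowest at -0.45 (standard error 0.26) and *Myc* highest at 0.13 (standard error 0.13). Their groups overlapped for every gene of the list, and 0 had an unadjusted p under 0.05.

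The plasma cell programme, which IRF4 promotes and BACH2 and BCL6 hold back, had 7 tested genes, *Irf4* among them. Its mean was higher for 2, *Mzb1* and *Irf4*, and lower for 5, *Jchain*, *Sdc1*, *Ell2*, *Prdm1* and *Xbp1*, with a median of -0.063, 0 adjusted calls and 2 at an unadjusted p under 0.05, *Jchain* and *Sdc1*. *Sdc1*, the plasma cell surface proteoglycan also made in other tissues, differed by -0.53 (standard error 0.13, adjusted p = 0.530 from limma), and *Mzb1*, a chaperone of antibody assembly, was highest at 0.13 (standard error 0.13). *Mzb1* and *Xbp1* are also expressed in plasmacytoid dendritic cells. Of 8 markers of dendritic cells, of plasmacytoid and other kinds, 7 were tested, 4 with a higher and 3 with a lower mean with miR-195. The log2 of the summed signals of the 7 was 8.13 and 8.27 with EMPTY and 8.26 and 8.21 with miR-195. Their part in these values was not tested.

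**Figure D4:**
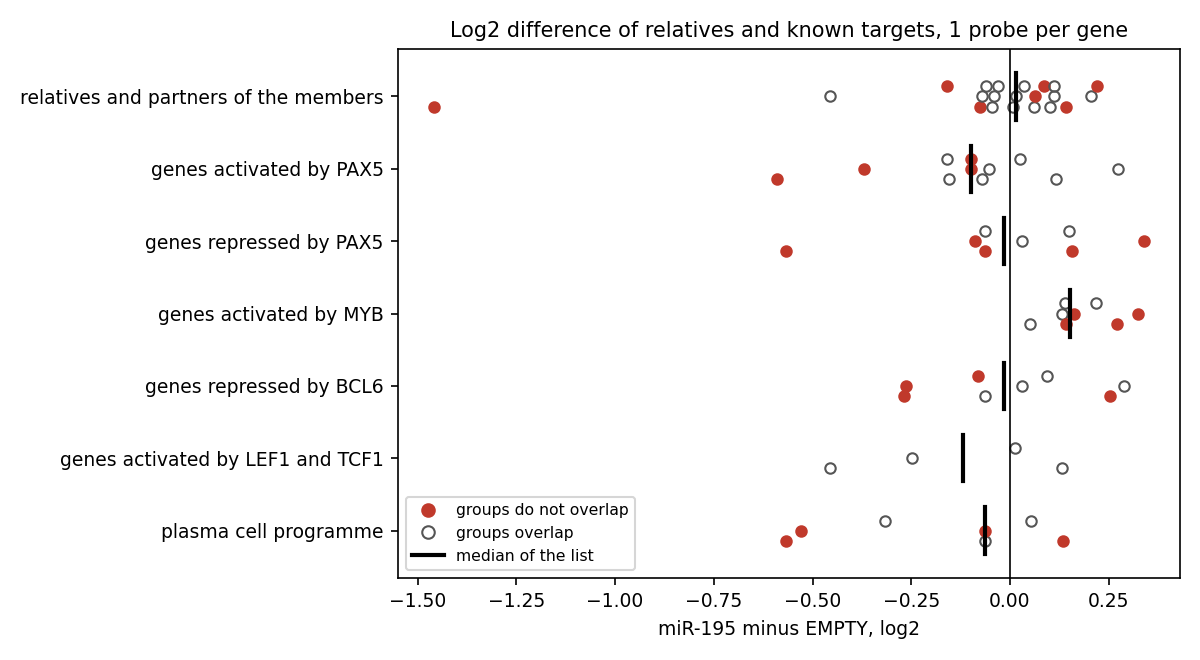
Log2 difference, miR-195 minus EMPTY (x axis), of each tested relative and known target of the 9 factors, by list, with 1 probe per gene. Filled points mark genes whose groups did not overlap and the black bars are list medians, from -0.12 for the LEF1 and TCF1 list to 0.15 for the MYB list. The lowest point is *Bcl11b*, drawn at its measured value although it was not well above background on the miR-195 arrays, as is *Cd79a*. No gene passed the adjusted threshold.

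The promoters of the 9 genes, from 250 bases before to 50 after each start in RefSeq, were searched on both strands for motifs of factors that act on this network. They are shown because FOXO1, E2A and EBF1 are central to early B cell development, and the capitals mark the match. The FOXO motif GTAAACA was in 1 of 15 member promoters and 3.65% of all 32851, the E2A motif CAGCTG in 1 and 16.3%, the EBF motif (TCCC and GGGA a pair of bases apart) in 0 and 0.904%, and the ETS-IRF composite (GGAA and GAAA a pair of bases apart) in 2 and 2.72%. The 4 matches, each with 30 bases of GRCm38.p6 in the direction of the gene, were these.
Myb, FOXO, chr10:21160935-21160964, minus strand: gtttgatggcatcTGTTTACagagttacac
Lef1, E2A, chr3:131112574-131112603, plus strand: actctgtctcagCAGCTGaggaaacctcac
Bach2, ETS-IRF, chr4:32417408-32417437, plus strand: acgaacgggcTTTCCCTTCCggtctaggtg
Bcl6, ETS-IRF, chr16:23981292-23981321, minus strand: cagaataacaGGAAAAGAAAaaaaaaaaga
A match is a description of letters and not a bound site, and 1 gene may have several start sites in this count.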

How the data were processed

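Per the labels, RNA of Ebf1-/- Lin- cells infected with the EMPTY or miR-195 virus was put on 4 Agilent one-colour mouse arrays, 2 per virus, from about 100 ng of RNA. The authors deposited a spot intensity from which background had been removed by the scanner software (version 11.5.1.1 in the submitters' notes, 9.1.3.1 in the file headers). They also deposited log2 values normalized to the 75th percentile in GeneSpring, which served as an alternative.

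Outlier spots were left out, log2 values of repeated spots were averaged, and the array's 75th percentile was subtracted. The 23731 probes that stood well above background with either virus, on both of its arrays, and kept a value on every array once outlier spots were left out were compared with limma 3.58.1 in R 4.3.3, with Benjamini-Hochberg adjustment over all of them and a threshold of 0.05, and the method was tested on simulated data. Sequences were read with Python 3.11.15, and probes of listed genes were named by accession in RefSeq (26055 matched). For lists, the probe of highest mean signal stood for a gene. For *Bcl11b* and *Cd79a*, the ratio took the lowest signal well above background on each miR-195 array, without sampling error. Named are all probes of the 9 genes, *Ebf1*, *Prdm1*, the highest and lowest gene of each list, genes of counts of 5 or fewer, and the 3 probes nearest to *Pax5*. *Cd34* was named after its value was seen. Not every gene under this rule is reported here. The genes, lists and motifs were chosen with earlier results of these data known. The alternatives were another background correction, 3 other scalings, the authors' table, 2 other filters, a trended robust variance, the replicate number as a block, the methods' t-test and each array left out.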

Additional observations from a re-analysis of the deposited data

How the results depend on the processing

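Over 15 alternatives, of which 9 can move a difference and the others only its test, 0 member probes passed the adjusted threshold in any, with 0 to 3 at an unadjusted p under 0.05. The count over all probes, 0 as reported, was 3 after scaling by the median and 5 with the replicate number as a block. Leaving out 1 array gave 0 to 904 calls, 904 without miR-195 replicate 1 and 3 without miR-195 replicate 2, with 0 members among them. The cause was not tested.

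The median difference of the members, 0.069, was 0.11 with normexp, -0.029 with scaling by the median, 0.090 with the percentile over detected probes, 0.045 in the authors' table and 0.072 to 0.13 with 1 array left out. Scaling by the median turned *Bach2* A_66_P114768 to -0.029 and *Irf4* to -0.044, normexp turned *Lef1* to 0.095, and *Myb* became 0.020 with quantile normalization and 0.0067 with the percentile over detected probes. With 1 array left out, the sign turned in 5 genes, which ranged from -0.034 to 0.56 (*Pax5*), -0.76 to 0.082 (*Lef1*), -0.18 to 0.036 (*Bcl6*), -0.020 to 0.13 (*Irf4*) and -0.18 to 0.15 (*Myb*). With the replicate block, 0 members were called and 2 had an unadjusted p under 0.05. Arrays of the same number shared only the number, with a correlation of their deviations of -0.10 over 23731 probes. The crossed pairing, chosen after seeing the data, gave 0 calls over all probes and 0 members. Where an array is left out, the lone one is assumed to vary like the others. The dim signal of *Pax5* limits what can be seen there.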
